A study of Mus musculus with 10 samples.

Results

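Proneural basic helix-loop-helix (bHLH) factors are transcription factors that start or carry forward the differentiation of progenitor cells into neurons. The 9 genes described here, Atoh7, Neurog1, Neurog2, Neurod2, Neurod4, Neurod6, Bhlhe22, Ptf1a and Olig2, were taken by symbol from a deposited table of 20044 gene symbols alone. Each of the 9 had 1 entry in the table.

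The retina was profiled late in gestation, at embryonic day E17.5, and after birth on the postnatal days PN1, PN7 and PN15, by chromatin immunoprecipitation and sequencing (ChIP-Seq) with antibodies against H3K4me2 or H3K27me3. Each of the 8 libraries came from chromatin pooled from at least 20 retinas, and each combination of mark and stage had 1 library. No difference between stages could therefore be compared with a spread between animals, and no p-value was computed. The sample labels give the Pde6b rd1/rd1 strain, which loses its rods to degeneration, for every library, whereas the study's methods give wild type C57BL/6j mice. The labels write the embryonic stage as E17 in the sample fields and as E17.5 in the protocol, and the study uses both forms. The antibody catalogue numbers of the marks also differ between the labels and the study, and each library's mark was taken from its title. For PN7, the name of the H3K27me3 column writes the mark with an extra b, the meaning of which is not given in the sources used here. Whole retinas mix all the cell types, so fewer cells of a type and less mark per cell cannot be told apart in any value below.

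Proneural bHLH proteins bind DNA as dimers with broadly expressed E proteins such as Tcf3, Tcf4 and Tcf12, at a short motif called the E-box. Id proteins capture the E proteins, and Hes and Hey repressors act downstream of Notch to hold progenitors back. In the retina the factors appear in progenitors and newborn neurons and are linked to particular fates, Atoh7 to ganglion cells and Ptf1a to amacrine and horizontal cells, for example. H3K4me2, dimethylated lysine 4 of histone H3, is found around active and poised start sites. H3K27me3, trimethylated lysine 27, is laid down by Polycomb repressive complex 2, which in mammals is found mostly at CpG-rich start sites of developmental regulators.

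The values are normalized occupancies, that is, reads within 2.5 kb on either side of a RefSeq transcription start site (TSS), which the authors divided by a factor for sequencing depth and rounded off to integers. All windows are 5 kb long, so levels of different genes can be set side by side. As a background limit, the 99th percentile of 1053 olfactory receptor entries in the same library was used. It was 6, 9, 1 and 9.48 for H3K4me2 from E17.5 to PN15 and lay between 33.48 and 43.96 for H3K27me3. The median over all symbols ran from 24 to 42 and from 9 to 11. The H3K4me2 library of PN7 stood apart, with 19.5% of its entries at 0 against 0.362% to 2.52% in the other H3K4me2 libraries. The H3K27me3 library of PN7 also had more entries at 0, 3.70%, than the other H3K27me3 libraries, with 0.0755% to 0.159%. In 3 libraries the spacing of the values showed what 1 read was worth, 0.946 for H3K4me2 at PN1, 0.819 for H3K27me3 at PN1 and 0.873 for H3K27me3 at PN15, and exact Poisson 95% intervals are given there. They cover counting error only. For the other 5 libraries the depth is unknown. The rod genes followed the retinal label, with H3K4me2 at Nrl of 35, 26, 24 and 116 and at Crx of 20, 24, 21 and 158 from E17.5 to PN15. Of markers of tissues next to the retina, the lens gene Cryaa had 7, 9, 3 and 6 and the hemoglobin gene Hbb-b1 had 4, 5, 0 and 4. At E17.5, 3 of 4 lens, 1 of 4 blood, 2 of 4 pigment epithelium and 4 of 4 muscle markers were above the H3K4me2 limit, and at PN15 the counts were 0, 1, 1 and 3, with all 8 rod markers above it. The part of other tissues in the values of the members was not tested.

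Start site sequences of 5 members are shown, the 3 with the highest mean H3K27me3 over the stages (Neurog1, Neurod2 and Olig2) and the 2 with the lowest (Neurod4 and Neurod6). Each runs 5′ to 3′ on the strand of the gene over 300 bases, 250 before and 50 after a RefSeq start, with CG dinucleotides in capitals. The sequences are from a RefSeq table on GRCm38.p6, and each was placed in mm9, the build used by the authors, by an exact match.
Neurog1: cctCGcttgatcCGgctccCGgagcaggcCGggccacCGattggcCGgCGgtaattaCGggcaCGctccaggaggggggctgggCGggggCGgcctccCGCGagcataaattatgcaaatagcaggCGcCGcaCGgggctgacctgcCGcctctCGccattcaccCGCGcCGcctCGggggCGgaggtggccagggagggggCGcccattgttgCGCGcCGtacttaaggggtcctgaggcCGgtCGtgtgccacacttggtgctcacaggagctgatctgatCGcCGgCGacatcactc
Neurod2: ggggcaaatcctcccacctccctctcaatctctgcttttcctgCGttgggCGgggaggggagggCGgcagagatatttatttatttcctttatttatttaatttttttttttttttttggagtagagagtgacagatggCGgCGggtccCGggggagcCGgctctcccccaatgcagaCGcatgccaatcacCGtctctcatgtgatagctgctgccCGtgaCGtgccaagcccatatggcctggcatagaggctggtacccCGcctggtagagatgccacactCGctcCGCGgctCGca
Olig2: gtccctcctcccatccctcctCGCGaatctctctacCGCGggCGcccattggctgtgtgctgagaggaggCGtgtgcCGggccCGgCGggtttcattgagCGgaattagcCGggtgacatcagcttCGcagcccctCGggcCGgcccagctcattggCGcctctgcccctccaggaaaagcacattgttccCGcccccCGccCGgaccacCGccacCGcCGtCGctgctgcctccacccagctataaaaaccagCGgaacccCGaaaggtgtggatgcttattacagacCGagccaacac
Neurod4: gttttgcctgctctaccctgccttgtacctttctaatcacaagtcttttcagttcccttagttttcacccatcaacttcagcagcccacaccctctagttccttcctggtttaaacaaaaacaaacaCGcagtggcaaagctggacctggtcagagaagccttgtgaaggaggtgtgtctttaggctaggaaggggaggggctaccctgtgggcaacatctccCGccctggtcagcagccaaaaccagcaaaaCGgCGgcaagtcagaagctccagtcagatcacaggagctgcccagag
Neurod6: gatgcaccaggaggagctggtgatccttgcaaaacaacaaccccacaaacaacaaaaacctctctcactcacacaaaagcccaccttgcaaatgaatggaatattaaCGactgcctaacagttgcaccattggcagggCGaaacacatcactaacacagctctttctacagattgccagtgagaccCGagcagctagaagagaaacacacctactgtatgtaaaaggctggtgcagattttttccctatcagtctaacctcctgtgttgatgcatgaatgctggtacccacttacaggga
In mm9 these stretches lie at chr13:56353492-56353791 (minus strand), chr11:98190910-98191209 (minus strand), chr16:91225545-91225844 (plus strand), chr10:129717261-129717560 (minus strand) and chr6:55631208-55631507 (minus strand). The Neurog1 stretch held 32 CG dinucleotides, that of Olig2 25 and that of Neurod2 16, whereas Neurod4 had 4 and Neurod6 had 3. Over 32851 RefSeq promoters of the same length the median was 7, and 90.5% of them had fewer than Neurog1, 67.0% fewer than Neurod2 and 23.3% fewer than Neurod6. For Neurod4 the table has another start, at position 129717194, whose stretch held 7.

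Across the group, most members carried both marks. H3K27me3 lay above the background limit at 7, 7, 7 and 6 of 9 members from the first stage to the last, against 17.1%, 15.4%, 15.9% and 13.8% of all symbols. H3K4me2 lay above its limit at 9, 9, 8 and 8 members, against 72.6%, 69%, 72.1% and 68.3% of all symbols. Both marks together were above their limits at 7, 7, 7 and 6 members, where all symbols gave 15.6%, 13.1%, 14.6% and 10.9%. With limits 3 times as high, 6, 3, 5 and 1 members had both marks from E17.5 to PN15, against 6.15%, 2.32%, 6.16% and 0.898% of all symbols. The H3K4me2 limit itself was 1 at PN7 and 9.48 at PN15, so counts of different stages were not taken at the same level. The members' median H3K27me3 was 108, 152, 232 and 148 from E17.5 to PN15, and their median H3K4me2 was 58, 42, 41 and 23.

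**Figure D1:**
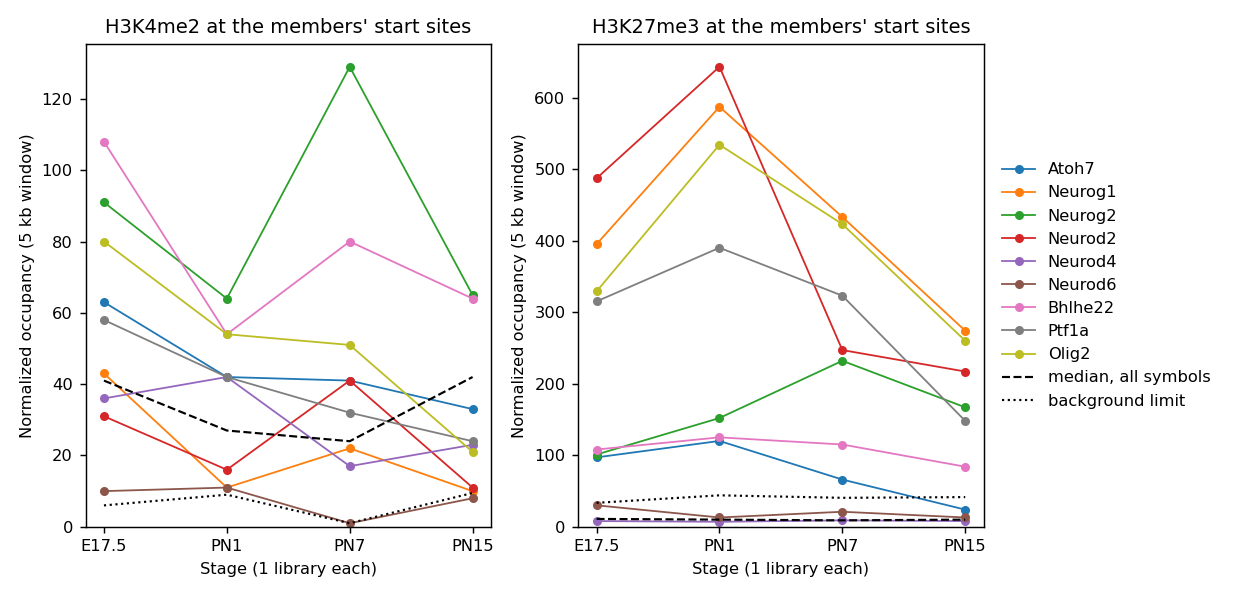
Normalized occupancy of H3K4me2 (left) and H3K27me3 (right) in the 5 kb window of each of the 9 members at the 4 stages; each point is 1 library, lines join the stages of a gene, and no error bar is drawn because no stage has a second library. The dashed line is the median over all 20044 symbols and the dotted line the background limit of each library. Neurod2, Neurog1, Olig2 and Ptf1a sit highest in H3K27me3 at E17.5, from 315 to 487, while Neurod4 stays between 7 and 9.

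The members fell into levels that differed by more than counting error. In H3K27me3 at PN1 the order was Neurod2 at 643 (95% counting interval 599 to 689.5), Neurog1 at 587 (545 to 632), Olig2 at 534 (494 to 577), Ptf1a at 390 (356 to 426), Neurog2 at 152 (131 to 176), Bhlhe22 at 125 (106 to 147), Atoh7 at 120 (102 to 142), Neurod6 at 13 (7.49 to 21.3) and Neurod4 at 7 (3.37 to 14.0). Neighbours in this order overlapped in their intervals except Olig2 with Ptf1a, Ptf1a with Neurog2 and Atoh7 with Neurod6. At PN15 the order was Neurog1 at 274 (245 to 306), Olig2 at 260 (231 to 291), Neurod2 at 217 (191 to 246), Neurog2 at 167 (144 to 192), Ptf1a at 148 (127 to 172), Bhlhe22 at 84 (67.9 to 102), Atoh7 at 24 (15.5 to 34.3), Neurod6 at 13 (7.33 to 21.6) and Neurod4 at 8 (3.59 to 14.9). There only Ptf1a with Bhlhe22 and Bhlhe22 with Atoh7 had intervals that did not overlap. In H3K4me2 at PN1 the gap fell between Atoh7, Neurod4 and Ptf1a, each at 42 (30.2 to 55.9), and Neurod2 at 16 (9.37 to 25.7), and Neurog2 led with 64 (49.95 to 81.6). Log2 ratios with counting intervals from PN1 to PN15 are given below from the deposited values. Over the 3132 symbols marked in H3K27me3, those with a mean over the stages above the mean background limit, the median change between these libraries was −1.05, and the change relative to it, with 1 added to each value, is given beside the ratio of each marked member.

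Atoh7, which retinal ganglion cells require in order to form, is a single-exon gene on the plus strand of chromosome 10 (62562904 to 62563353 in mm9, GENCODE annotation). Its H3K4me2 was 63, 42, 41 and 33 and its H3K27me3 97, 120, 66 and 24, in the order of the stages. Of the 7 members above the H3K27me3 limit at E17.5, Atoh7 was the only one below it at PN15. From PN1 to PN15 its H3K27me3 was 5 times lower, a log2 ratio of −2.32 with a 95% counting interval of −3.00 to −1.75, or −1.23 relative to the marked symbols. Both marks thus had their lowest value at PN15. In rank, its H3K27me3 was above 91.8% of all symbols at E17.5 and above 76.0% at PN15. The 3 symbols with the most similar 8 values, by Euclidean distance of log2(value + 1), were Fam40b, Snx22 and C1qtnf4, at a distance of 0.93 for the nearest. The RefSeq start of Atoh7 lies 371 bases from the GENCODE start, well within the counted window.

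Neurog1, best known for the sensory neurons of cranial ganglia and the inner ear, is a single-exon gene on the minus strand of chromosome 13 (56351866 to 56353524). Its H3K27me3 was 395, 587, 433 and 274, and its H3K4me2 was 43, 11, 22 and 10. H3K27me3 was thus high in all 4 libraries, above 98.5% of all symbols or more, while H3K4me2 was highest at E17.5 and close to the background limit at PN1 (11 against 9) and PN15 (10 against 9.48). The log2 ratio of its H3K27me3 from PN1 to PN15 was −1.10 (−1.30 to −0.91), or −0.05 relative to the marked symbols. The symbols nearest to it included Tlx3 and Alx4, which encode homeodomain factors, the first at a distance of 0.91. Tlx3 had H3K27me3 of 502, 716, 435 and 270 with H3K4me2 of 35, 18, 24 and 8.

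Neurog2, which is expressed in retinal progenitors and promotes neuronal differentiation, has 2 exons on the plus strand of chromosome 3 (127336054 to 127338549). Its H3K4me2 was 91, 64, 129 and 65, the highest of the 9 members at PN1, PN7 and PN15. Its H3K27me3 was 101, 152, 232 and 167. Neurog2 was the only member with more H3K27me3 at PN15 than at E17.5, at 1.65 times the earlier value. Between PN1 and PN15, however, its deposited H3K27me3 values did not differ beyond counting error, with a log2 ratio of 0.14 and an interval of −0.17 to 0.43, although relative to the marked symbols the change was 1.18. Its nearest symbols were Fst, Pcdh1 and Irx5, the first at a distance of 0.60. Fst, which encodes the secreted activin antagonist follistatin, had H3K4me2 of 95, 55, 151 and 60 and H3K27me3 of 95, 136, 216 and 122.

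Neurod2, a differentiation factor of forebrain neurons, has 2 exons on the minus strand of chromosome 11 (98186729 to 98190962). Its H3K27me3 of 487, 643, 247 and 217 was the highest of the members at E17.5 and PN1. Its H3K4me2 was 31, 16, 41 and 11. The largest step in H3K27me3 came between PN1 and PN7, and from PN1 to PN15 the log2 ratio was −1.57 (−1.78 to −1.36), or −0.52 relative to the marked symbols. Chat, Slc18a3 and Dmrta2 were its nearest symbols, the first at 0.85. Chat and Slc18a3, the synthetic enzyme and the vesicular transporter for acetylcholine, are products of 1 locus and may share the counted window, so they are not independent neighbours.

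Neurod4, which acts with other bHLH factors in the formation of amacrine and bipolar cells, has 2 exons on the minus strand of chromosome 10 (129705209 to 129717296). Its H3K4me2 was 36, 42, 17 and 23. Its H3K27me3 was 8, 7, 9 and 8, below the median over all symbols in 3 of 4 libraries and equal to it in the other. It was the only member with H3K4me2 above the limit in every library and H3K27me3 above it in none. From PN1 to PN15 the H3K27me3 ratio could not be told from 1 at this depth, with a log2 interval of −1.42 to 1.60, and Neurod4 is not among the marked symbols. Its nearest symbols were Med16, Ifit2 and Slitrk2, at 0.68 for the first.

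Neurod6, a factor of cortical projection neurons that also marks a subset of amacrine cells, has 2 exons on the minus strand of chromosome 6 (55627812 to 55631257). Its H3K4me2 was 10, 11, 1 and 8, the lowest or joint lowest of the members at every stage. Its H3K27me3 was 30, 13, 21 and 13, below the limit in all 4 libraries. The E17.5 value of 30 lay just under the limit of 33.48, and it passed when the 95th percentile of the olfactory receptors was used. Its nearest symbols were Gbp5, Aldh3a1 and Agt, the first at 0.87.

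Bhlhe22, a repressor needed by some amacrine and cone bipolar cells, is a single-exon gene on the plus strand of chromosome 3 (17954325 to 17957509). Its H3K4me2 of 108, 54, 80 and 64 was the highest of the members at E17.5, above 98.1% of all symbols. Its H3K27me3 was 108, 125, 115 and 84, a range of 1.49-fold that was the smallest among the 7 members above the limit at E17.5. From PN1 to PN15 the log2 ratio of H3K27me3 was −0.57 (−0.96 to −0.20), and the change was 0.48 relative to the marked symbols. Its nearest symbols were Nefm, Glis3 and Frzb, the first at 0.62. Nefm, which encodes a neurofilament subunit, had H3K4me2 of 96, 54, 92 and 87 and H3K27me3 of 124, 112, 136 and 82.

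Ptf1a, which specifies amacrine and horizontal cells and is also required for the pancreas, has 2 exons on the plus strand of chromosome 2 (19367290 to 19369128). Its H3K4me2 was 58, 42, 32 and 24 and its H3K27me3 315, 390, 323 and 148. H3K4me2 was lower at each later stage, and H3K27me3 was highest at PN1. The log2 ratio of H3K27me3 from PN1 to PN15 was −1.40 (−1.65 to −1.14), or −0.34 relative to the marked symbols. The window of Ptf1a also holds the annotated start of Gm13336, and reads of the 2 starts cannot be told apart. Its nearest symbols were Spata18, Aim1 and Nefl, the first at 0.41.

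Olig2, known for motor neurons and oligodendrocytes and found in retinal progenitors near their last division, has 2 exons on the plus strand of chromosome 16 (91225795 to 91228922). Its H3K4me2 was 80, 54, 51 and 21 and its H3K27me3 329, 534, 423 and 260. Its H3K4me2 was above 87.6% of all symbols at E17.5 and above 38.8% at PN15, whereas its H3K27me3 was above 97.8% and 99.5%. The log2 ratio of H3K27me3 from PN1 to PN15 was −1.04 (−1.24 to −0.84), and 0.01 relative to the marked symbols. Its nearest symbols were Mecom, Osr2 and Pou4f2, the first at 0.56. Pou4f2, a ganglion cell transcription factor, had H3K27me3 of 365, 507, 412 and 223 with H3K4me2 of 64, 43, 62 and 20.

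**Figure D2:**
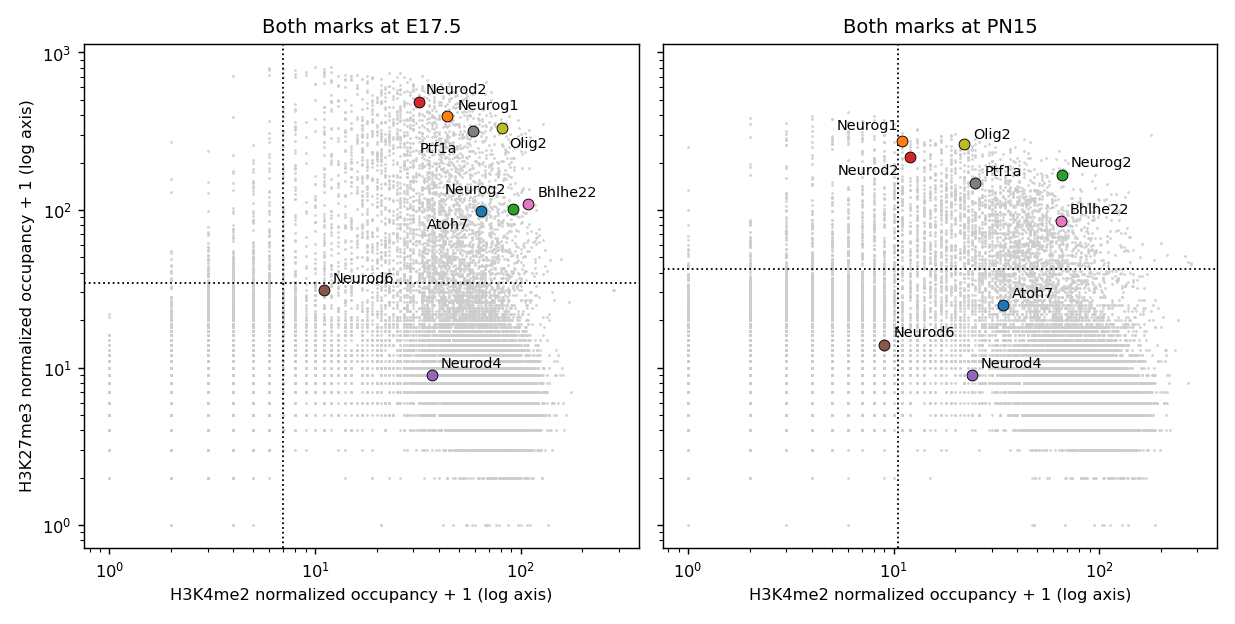
H3K4me2 (horizontal, log axis) against H3K27me3 (vertical, log axis), both as normalized occupancy + 1, at E17.5 (left) and PN15 (right); grey points are the 20044 symbols, coloured points the 9 members, and dotted lines the background limits. At E17.5, 7 members lie above both limits, and at PN15, 6 do, Atoh7 being below the H3K27me3 limit.

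H3K4me2 at the members was lower at the end of the series than at its start. From E17.5 to PN15 the value was lower at all 9 members, against 37.7% of all symbols and 35.2% of the symbols marked in H3K4me2. Taken relative to the median change over all symbols, which was 0.13 on the log2 scale with 1 added to each value, it was at least 2-fold lower at 5 of 9 and at least 2-fold higher at 0, against 12.8% and 5.17% of all symbols. The 5 were Neurog1 (−2.13), Olig2 (−2.01), Neurod2 (−1.55), Ptf1a (−1.37) and Atoh7 (−1.05). The other 4 were Bhlhe22 (−0.88), Neurod4 (−0.76), Neurog2 (−0.61) and Neurod6 (−0.42), and the median over the 9 was −1.05. Atoh7 was close to the limit of 2-fold. From PN1 instead of E17.5, 4 members were at least 2-fold lower, Neurod2, Neurod4, Ptf1a and Olig2, against 19.4% of all symbols. Neurog1, by contrast, had 11 at PN1 and 10 at PN15, a change of −0.63 relative to all symbols after one of −1.46 from E17.5 to PN1.

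The single steps in H3K4me2 were less uniform. From E17.5 to PN1 only Neurog1 was at least 2-fold lower (−1.46), against 1.11% of all symbols. From PN1 to PN7, 4 members were at least 2-fold higher, Neurod2 (1.81), Neurog2 (1.5), Neurog1 (1.44) and Bhlhe22 (1.06), against 13.7% of all symbols, and Neurod6 was lower (−2.08, from 11 to 1), against 26.6%. Relative to the marked symbols the counts were 3 higher and 2 lower, against 8.05% and 10.7% of those symbols. From PN7 to PN15, 7 of 9 were at least 2-fold lower, against 17.1%, and Neurod6 was higher (1.17, from 1 to 8), against 15.9%. The last 2 steps rest on the PN7 library that stood apart, and the median over all symbols shifted by −0.50 and 1 in them. The part of that library in the 2 steps was not tested. Before centring, Neurog2 had 64, 129 and 65 and Bhlhe22 had 54, 80 and 64 at PN1, PN7 and PN15. Of the 7 members called lower from PN7 to PN15, only Neurod2 (−1.81), Olig2 (−1.24) and Neurog1 (−1.06) passed the 2-fold limit without centring. The rest were Neurog2 (−0.98), Ptf1a (−0.40), Bhlhe22 (−0.32) and Atoh7 (−0.30).

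H3K27me3 at the members depended on what it was compared with. From E17.5 to PN15 it was lower in value at 7 members, the same at Neurod4 and higher at Neurog2, where 49.4% of all symbols had a lower value. Relative to all symbols, whose median change was 0.00, it was at least 2-fold lower at 4, Atoh7 (−1.97), Neurod2 (−1.16), Neurod6 (−1.15) and Ptf1a (−1.08), and at least 2-fold higher at 0, against 16.1% and 12.2% of all symbols. Most symbols hold hardly any H3K27me3, however, and the 3132 symbols with a mean over the stages above the background had a median change of −0.80, with 79.4% of them lower in value. Relative to these marked symbols, a comparison added after seeing the data, 1 member was at least 2-fold lower (Atoh7, −1.17) and 1 at least 2-fold higher (Neurog2, 1.52), against 9% and 16% of the marked symbols. The median over the 9 members turned from −0.53 relative to all symbols to 0.28 relative to the marked ones. Neurog2 was thus higher in both comparisons, and Atoh7, Neurod2 (−0.36 relative to the marked symbols), Neurod6 (−0.34) and Ptf1a (−0.28) were lower in both. Neurog1 (−0.53 and 0.28), Bhlhe22 (−0.36 and 0.44) and Olig2 (−0.34 and 0.46) changed sign, and Neurod4 went from 0.00 to 0.80.

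**Figure D3:**
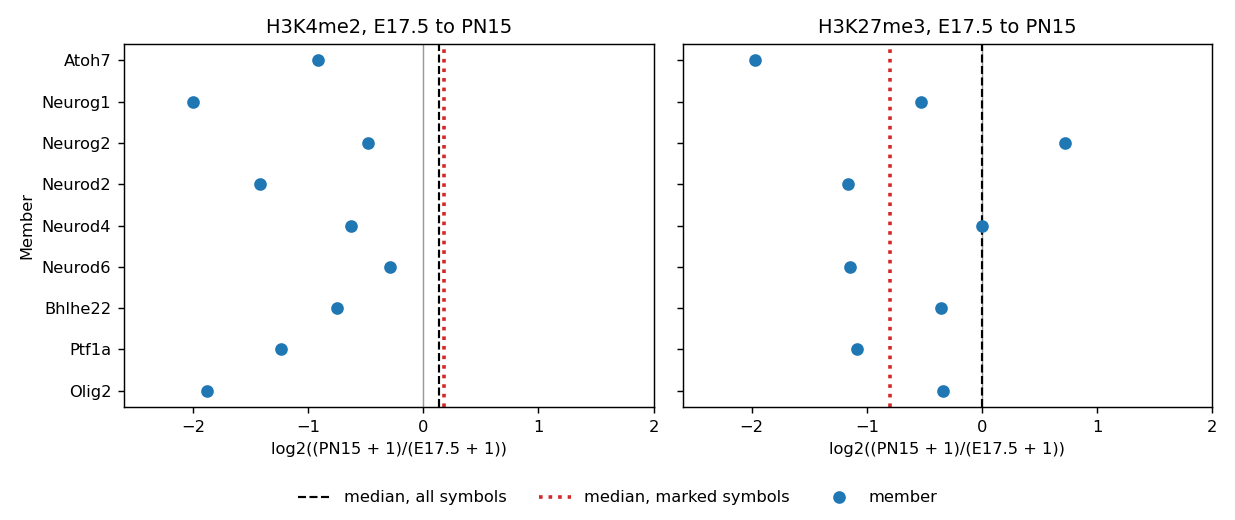
Change from E17.5 to PN15 at each member as log2((PN15 + 1)/(E17.5 + 1)), with H3K4me2 on the left and H3K27me3 on the right; each point is 1 gene from 1 library per stage. The dashed line is the median over all symbols (0.13 and 0.00) and the dotted line the median over the marked symbols (0.18 and −0.80). All 9 points lie left of both lines for H3K4me2, whereas for H3K27me3 the points lie on both sides of the dotted line.

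By steps, H3K27me3 at the members was mostly higher at PN1 and lower at PN15. From E17.5 to PN1 the value was higher at 7 of 9 members, as it was at 49.1% of all symbols and 82.1% of the marked ones, and the members' median change was 0.31 relative to all symbols and 0.06 relative to the marked symbols. In that step only Neurod6 was at least 2-fold lower (−1.15), against 8.27% of all symbols. From PN1 to PN7 only Neurod2 was at least 2-fold lower (−1.22), against 9.33%. From PN7 to PN15 the value was lower at all 9, as it was at 44.3% of all symbols and 87.4% of the marked ones, and by at least 2-fold at Atoh7 (−1.42) and Ptf1a (−1.12), against 9.7% of all symbols. Relative to the marked symbols, whose median change in that step was −0.72, 0 members were at least 2-fold lower, against 2.94% of them, and the members' median was 0.07. Of the members above the limit at E17.5, Neurog2 departed from this course, since its highest value was at PN7. Among the 2 that stayed under the limit, Neurod4 had its highest value at PN7 and Neurod6 at E17.5. The part of the PN7 library, which had more entries at 0, in the steps to and from it was not tested.

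The other genes of the pathway were read from lists of further neurogenic bHLH genes (10), partners and antagonists (13) and bHLH genes of other tissues (19). Most genes of the first and the last of these held H3K27me3, as most members did, and most partners and antagonists did not. Above the H3K27me3 limit at E17.5 were 9 of 10 further neurogenic genes, 1 of 13 partners and antagonists and 13 of 19 genes of other tissues. Beside these stood 7 of 9 members and 17.1% of all symbols. At PN15 the counts were 7, 3 and 12, beside 6 members and 13.8% of all symbols. H3K4me2 was at least 2-fold lower at PN15 than at E17.5, relative to all symbols, at 5, 2 and 6 genes of these lists. It was at least 2-fold higher at 0, and the medians were −1.07, −0.29 and −0.59. Of all symbols, 12.8% were lower and 5.17% higher by that limit. The H3K27me3 medians were −1.46, 0.58 and −0.93 relative to all symbols and −0.66, 1.39 and −0.13 relative to the marked symbols. Relative to the latter, 1, 0 and 2 genes were at least 2-fold lower and 1, 8 and 3 at least 2-fold higher, against 9% and 16% of the marked symbols. The H3K27me3 counts given below for each list, which are relative to all symbols, thus depend on that choice. Only 2 of the 13 partners and antagonists were themselves marked symbols, and an unmarked gene whose value stays level counts as 0.80 higher on that scale by construction.

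Among the further neurogenic genes the highest H3K27me3 at E17.5 was at Neurog3, the endocrine pancreas factor, with 606, 579, 452 and 206, then Olig3 (553, 683, 466 and 243) and Bhlhe23 (540, 607, 404 and 186). At the low end of the genes reported here, Nhlh1 had 74, 88, 53 and 27. At least 2-fold lower at PN15 were 7 of 10, namely Neurod1, Neurog3, Olig1, Olig3, Bhlhe23, Nhlh1 and Ascl4, from −1.18 at Olig3 to −2.90 at Neurod1. At least 2-fold higher was 1 of 10. Of all symbols, 16.1% were lower and 12.2% higher by that limit. Neurod1, which photoreceptors continue to use, had H3K27me3 of 186, 230, 58 and 24 with H3K4me2 of 92, 52, 47 and 113. Its H3K27me3 resembled that of Atoh7 in being under the limit only at PN15, but its H3K4me2 was highest at PN15, where that of Atoh7 was lowest.

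Among partners and antagonists the highest H3K27me3 at E17.5 was 46 at Id3, 33 at Hey2 and 28 at Heyl, and the lowest was 1 at Tcf4 and 5 at Id4. None was at least 2-fold lower at PN15, against 16.1% of all symbols. At least 2-fold higher, against 12.2%, were 5 of 13, Id1 (9 to 40), Id2 (26 to 167), Id4 (5 to 23), Hes1 (13 to 73) and Tcf4 (1 to 7). Of these only Id2 and Hes1 ended above the limit. H3K4me2 lay above its limit at all 13 at E17.5, as it did at all 9 members and at 72.6% of all symbols.

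Of the bHLH genes of other tissues, Hand1, a heart and trophoblast factor, had the highest H3K27me3 at E17.5, with 703, 883, 578 and 286 over the stages, followed at that stage by Hand2 (561, 722, 553 and 250) and Tal1 (555, 764, 588 and 254). The lowest at E17.5 were the muscle factors Myf5 at 8 and Myf6 at 11. At least 2-fold lower at PN15 were 9 of 19, Myod1, Twist1, Twist2, Tal1, Lyl1, Hand1, Hand2, Scx and Mesp1, from −1.01 at Twist1 to −1.95 at Mesp1. None was at least 2-fold higher. The shares of all symbols were 16.1% lower and 12.2% higher. In H3K4me2, Hand1 had 14, 12, 8 and 2 and Tal1 20, 21, 14 and 23, where Neurog2 and Bhlhe22 had 54 or more throughout. The other 7 members had less than 54 at 1 stage or more, and Neurog1 (10 to 43), Neurod2 (11 to 41), Neurod4 (17 to 42) and Olig2 (21 to 80) overlapped with the range of Tal1.

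**Figure D4:**
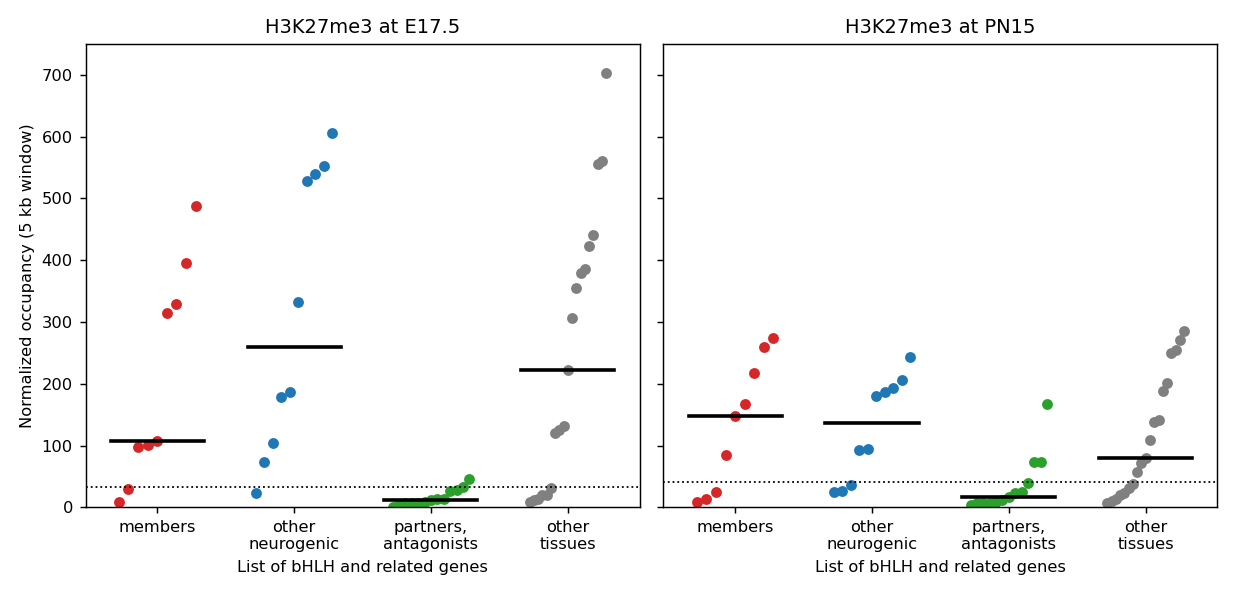
H3K27me3 normalized occupancy at E17.5 (left) and PN15 (right) of the 9 members, 10 further neurogenic bHLH genes, 13 partners and antagonists and 19 bHLH genes of other tissues; each point is 1 gene in 1 library, sorted within its list, the bar is the list's median and the dotted line the background limit. The partners and antagonists lie mostly under the limit at both stages, and the members reach 487 at E17.5 and 274 at PN15.

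CpG content differed widely among the members and was lowest at Neurod4 and Neurod6, whose H3K27me3 stayed under the limit in all 4 libraries. In 5 kb windows around the GENCODE starts in mm9, Neurod4 had 22 CpG dinucleotides and Neurod6 had 65, where the median over 19224 genes was 102. The other 7 had more than that median, with 149 at Atoh7, 181 at Ptf1a, 186 at Neurog1, 246 at Bhlhe22, 246 at Neurod2, 261 at Neurog2 and 283 at Olig2. Of all genes, 98.9% had fewer CpG than Olig2 and 6.27% fewer than Neurod4. Among these 7, Bhlhe22 and Neurod2 had the same number of CpG but mean H3K27me3 over the stages of 108 and 398.5, and Atoh7, with the fewest, had the lowest mean, 76.75. The other bHLH lists held exceptions in both directions, since Lyl1 had 95 CpG and a mean of 244, Nhlh1 59 CpG and a mean of 60.5, and Hey1 244 CpG and a mean of 10. These 3 were chosen after their values were seen. Over all genes the median of that mean was 10 in windows with fewer than 100 CpG and 31.2 in those with 300 or more, so most CpG-rich windows held little of the mark.

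**Figure D5:**
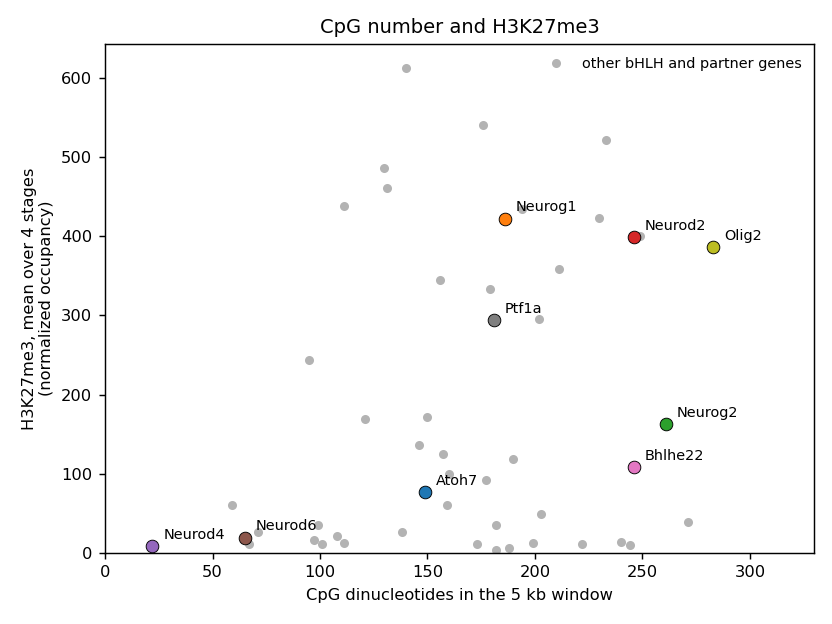
Number of CpG dinucleotides in the 5 kb window (horizontal) against the mean H3K27me3 normalized occupancy over the 4 stages (vertical) for the 9 members, named, and for the other bHLH and partner genes with a window, in grey; each point is 1 gene. Neurod4 and Neurod6 lie at the lower left with 22 and 65 CpG, while Neurog1, Neurod2 and Olig2 have means from 386 to 422 with 186 to 283 CpG.

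The E-box, CANNTG, which reads the same on both strands, was also searched for in the 300-base stretches. It was found 3 times at Atoh7, 3 times at Neurod2, 2 times at Neurod6 and 1 time at Neurog1. No match was found at Neurog2, Olig2 and Ptf1a, nor in the Neurod4 stretch shown, whereas the stretch of the other Neurod4 start held 1. Of all promoters of this length, 72.3% held at least 1 match and 17.6% held 3 or more. In the 5 kb windows the members had 20 to 30 matches, around the median of 25 over all genes. Bhlhe22 has no entry in the table used here.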

How the data were processed

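Retinal H3K4me2 and H3K27me3 ChIP-Seq libraries of 4 stages were analysed from 1 deposited table. The authors mapped reads to mm9 with Bowtie 0.12.4, left out reads with several positions, placed each read at the midpoint of an assumed 190 bp fragment, and added up the reads up to 2.5 kb from the TSS of each RefSeq entry. Each deposited value is a score, which the authors obtained by normalizing this sum to all mapped reads and rounding it. A count model was therefore not applied. Of the 10 samples, 2 (H3K4me2 of rd1/rd1 retinas and anti-GFP) have no column here and were not analysed.

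The 25152 entries were reduced to 20044 symbols by keeping, for each, the entry whose 8 values had the highest total. Changes are log2((later + 1)/(earlier + 1)) minus the median over all symbols, and a 2-fold limit was used for counts. The value of 1 read was searched from the spacing of the values. In the 3 libraries where it was found, 3 reads were worth 2.838, 2.457 and 2.619. No floor was applied to the values, changes or counts. Ratios of reads carry exact conditional binomial 95% intervals. With 1 library per condition no test was possible. The steps were tested on simulated data. Named were all 9 members, the 3 symbols nearest to each, and, per other list, the 3 with the most and the 2 with the least H3K27me3 at E17.5 and all past the limit at PN15. A few genes that this rule covers are not reported here. The members were found by symbol, but they and the lists had been chosen with earlier results of these data known. The genes named beside this rule are markers of tissue identity. Alternatives were other pseudocounts, scalings, limits and entries. The work used Python 3.11.15, numpy 2.4.6, pandas 2.3.3, scipy 1.17.1 and matplotlib 3.10.9.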

Additional observations from a re-analysis of the deposited data

How the results depend on the processing

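No paired analysis was possible because each mark and stage has 1 library and no result comes from a test. The depth of 5 of 8 libraries is unknown, the deposited values are rounded, and differences between low values, such as those of Neurod6, rest on few reads. The annotated windows were not in every case those the authors counted, with the Atoh7 starts 371 bases apart.

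Counts of members moved mainly with the scaling and the limits. With libraries rescaled to the same sum, H3K27me3 was at least 2-fold lower at PN15 than at E17.5 at 1 member (4 as reported) and higher at 1 (0 as reported). Relative to the marked symbols, an alternative chosen after seeing the data, the counts were also 1 lower and 1 higher, and the members' median was 0.28 in place of −0.53. A fold limit of 1.5 gave 8 members with lower H3K4me2 (5 as reported) and 1 with higher H3K27me3, and a limit of 3 gave 2 with lower H3K4me2 and 1 with lower H3K27me3. The shares of all symbols at these fold limits were not computed. With 3 times the background limit, 3 members had both marks at PN1 (7 as reported), 3 had H3K4me2 at PN15 (8 as reported) and 1 had both marks at PN15 (6 as reported). A pseudocount of 5 left 3 of 10 further neurogenic genes with lower H3K4me2 in place of 5. The cause was not tested. Of 147 values of lists and counts under the alternatives, 134 stayed within 1.5-fold of the value reported, as did 111 of 125 changes of single members, with log2 changes compared as folds. These totals do not measure stability, since some alternatives could not move the members. Each member has 1 entry, so the mean over entries shifts only the median that is subtracted. For H3K27me3 that median was 0.00, so leaving it out changes nothing. Small changes could still turn sign within that range. With libraries rescaled to the same sum, the members' median H3K27me3 change was 0.01, that of Neurog1 0.01, Bhlhe22 0.17 and Olig2 0.19. With a pseudocount of 5, 25 of 27 nearest symbols were shared.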
